A study of Arabidopsis thaliana with 8 samples.

Results

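Chloroplast genes of the inflorescence stem were followed here through 5 members, LHCB2.4 (AT3G27690), LHCB4.1 (AT5G01530), RCA (AT2G39730), DXPS1 (AT3G21500) and the plastid ribosomal protein gene RPL15 (AT3G25920). Each member was read by 1 named probe, so that 5 of the 37685 probes and of the 7418 genes with a named probe are described. A gene is called measured below where it has a named probe. A further 30057 probes have ratios but no gene name, so that a gene not called measured may still have a probe. The members were picked with ratios of these same arrays known. LHCB2.4, RPL15 and DXPS1 are named here only because they stand in the list of genes that the study called differentially expressed at 8 weeks, whereas LHCB4.1 and RCA are named by the platform annotation. The values at both ages are therefore given as a description.

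The arrays compared SND2-OV(A), a homozygous transgenic line of Arabidopsis thaliana Col-0 that carries the coding sequence of the NAC transcription factor SND2 in an overexpression vector with a constitutive promoter, with wild type Col-0. A bottom segment of the primary inflorescence stem, of 1 length, was sampled from plants of 8 weeks and of 4 weeks. Stems at 4 weeks were only slightly taller than this segment, so that nearly the whole young stem was taken. A difference between the ages can thus hold stem region and stage as well. More plants were pooled per replicate at 4 weeks than at 8 weeks. Each age had 3 biological replicates, which were separate pools of plants, on 4 arrays, as the RNA of replicate 1 was hybridized a second time with the dyes swapped. The RNA of the line was labelled with Cy3 in replicate 2 but with Cy5 in replicate 3, so that biological spread and dye cannot be told apart for these replicates. A single line was measured, selected because its CesA8 transcript appeared raised, and the results describe this line only. The sample labels state hygromycin selection for the transgenic plants at both ages, whereas the methods state that none was used at 4 weeks. Each value is a log2 ratio of SND2-OV(A) over wild type, in which 1 unit is a 2-fold difference, and errors are the SD over replicates. The table used here gives ratios without intensities, so that neither the level of a transcript nor its signal over background can be read from it, and the tissue cannot be checked by marker levels. In a segment of stem, fewer green cells and less transcript per green cell cannot be told apart.

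The green cortex of an Arabidopsis stem carries out photosynthesis. Chlorophyll proteins of the Lhcb family form the antenna of photosystem II, in which LHCB2 proteins belong to the mobile trimers and LHCB4 proteins (CP29) are monomers that link the trimers to the core. Rubisco activase, the product of RCA, removes inhibitory sugar phosphates from Rubisco, the carbon-fixing enzyme. The plastid also makes isoprenoid precursors by the MEP pathway, whose opening step is that of deoxyxylulose phosphate synthase, and it translates its own genes on ribosomes that contain the nuclear-encoded protein L15. All 5 are nuclear genes, and DXPS1 is annotated as a member of that synthase family.

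The overexpressed gene SND2 itself had log2 ratios from 5.23 to 7.60 at 8 weeks and from 2.75 to 3.37 at 4 weeks, above 0 on all arrays. Over all 37685 probes the median log2 ratio was -0.03 at 8 weeks and -0.00 at 4 weeks, and the median SD over replicates was 0.18 and 0.23.

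The 5 chloroplast genes shared no common direction. At 8 weeks DXPS1 and LHCB2.4 were higher in SND2-OV(A) in all 3 replicates, RPL15 was lower in all 3, and LHCB4.1 and RCA lay around the wild type. Of all probes 7.73% were higher and 18.3% lower in all 3 replicates at this age. At 4 weeks RPL15 was again lower in all 3 replicates, and the other 4 genes had replicates on both sides of the wild type, where 8.91% of all probes were higher and 7.98% lower in all 3. At 8 weeks 2 of the 5 genes were more than 1.5-fold higher (0.456% of all probes) and 1 was more than 1.5-fold lower (2.76%). DXPS1, LHCB2.4 and RPL15 have named probes only through the 8-week list of the study, which was cut at 1.5-fold. These 8-week counts thus follow from that choice and cannot be weighed against the shares of all probes. At 4 weeks 0 were more than 1.5-fold higher (1.05%) and 1 was more than 1.5-fold lower (1.52%). In limma 0 of the 37685 probes passed an adjusted p under 0.05 at 8 weeks, at 4 weeks or for the difference between the ages (0.0% called in each), so none of the values below passed the test. The study's own limma analysis listed 223 genes at 8 weeks, at a false discovery rate below 0.05 and a fold change over 1.5. Its 4-week list held 45 genes, for which the paper states no separate fold cut. SND2 itself did not pass the fit used here, with an adjusted p of 0.44 at 8 weeks and 0.41 at 4 weeks in limma. Failing this fit is thus no sign that a gene was unchanged. At an unadjusted p under 0.05 there were 1319 probes (3.5%) at 8 weeks and 374 (0.992%) at 4 weeks.

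**Figure D1:**
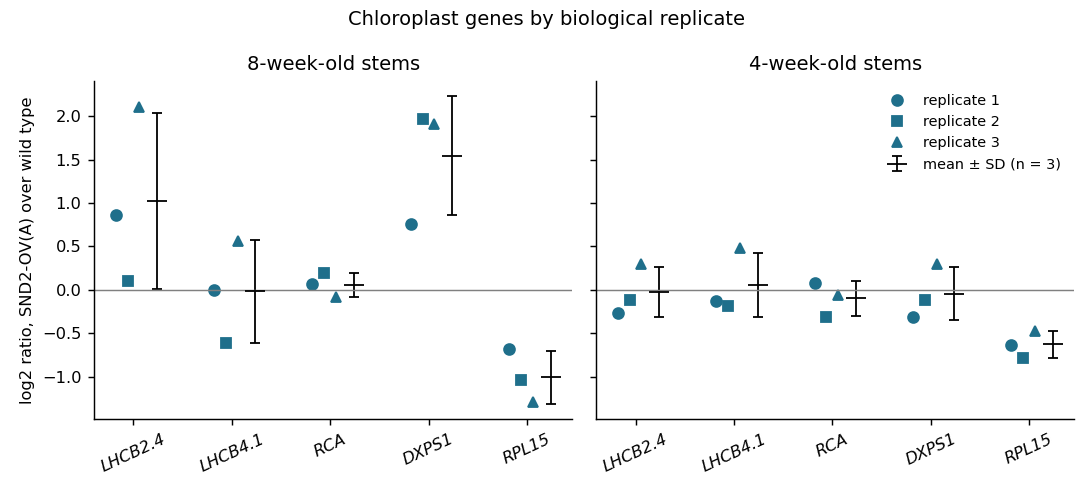
Log2 ratio of SND2-OV(A) over wild type (vertical axis) for the 5 chloroplast genes in 8-week-old and 4-week-old stems. Symbols are the 3 biological replicates and bars the mean ± SD. DXPS1 and LHCB2.4 lie above 0 in each 8-week replicate and RPL15 lies below 0 in all 6 replicates.

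LHCB2.4, an antenna gene that RefSeq now lists as LHCB2.3, had log2 ratios of 0.87, 0.10 and 2.11 in replicates 1, 2 and 3 at 8 weeks. The mean was 1.02 ± 1.02 (SD, n = 3), or 2.03-fold, and the spread was as large as the mean. Replicate 3 was far above the others, and replicate 2 lay close to the wild type. Without replicate 3 the mean was 0.48. The dye-swapped arrays of replicate 1 read nearly alike, at 0.85 with the line in Cy3 and 0.88 with the line in Cy5. By its mean the probe ranked 27th from the highest of all 37685.

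At 4 weeks LHCB2.4 had log2 ratios of -0.26, -0.11 and 0.29, with a mean of -0.03 ± 0.29 (SD, n = 3). Both arrays of replicate 1 lay below the wild type, at -0.27 with the line in Cy3 and -0.26 with it in Cy5. Its adjusted p at 4 weeks was 1.0 in limma over all probes. The ranges at the ages overlapped, since replicate 2 at 8 weeks lay below replicate 3 at 4 weeks. The difference, 8 minus 4 weeks, was 1.05 ± 0.49 (SE), and 0.51 without replicate 3 at 8 weeks. As LHCB2.4 is named only through the 8-week list of the study, part of this difference can follow from that choice. Close copies of LHCB2.4 occur in the Arabidopsis genome, and whether the probe separates them was not tested.

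The replicates of LHCB2.4 at 8 weeks had the same order as those of genes for cellulose synthesis in secondary walls. The cellulose synthase gene CESA4 (AT5G44030) had 0.56, 0.12 and 1.95, CESA7 (AT5G17420) had 0.70, 0.09 and 1.59, and CESA8 (AT4G18780) had 0.64, 0.00 and 1.48. These are 3 of 5 listed marker genes of xylem vessels and fibres, the other 2, XCP1 and XCP2, having no named probe. Among the 7628 named probes, CESA4 was the one closest to LHCB2.4 over the 6 replicate ratios, with a root mean square difference of 0.20 on the log2 scale. OXS3 (AT5G56550), named for oxidative stress, and FLA11 (AT5G03170), a fasciclin-like arabinogalactan protein gene of secondary walls, followed at 0.22 and 0.23. All 3 of these, like LHCB2.4, CESA7 and CESA8, are named only through the 8-week list of the study and were thus chosen on the same samples. The order of the replicates was not particular to wall genes. SND2 itself had it at 8 weeks, at 7.25, 5.23 and 7.60, as did LHCB4.1 and other genes described below. It is also the order of the dyes, with the line in Cy5 in replicate 3, both dyes in replicate 1 and Cy3 in replicate 2. The share of all probes with this order was not counted. The part of the wall-forming cells in the ratio of LHCB2.4 was not tested.

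**Figure D2:**
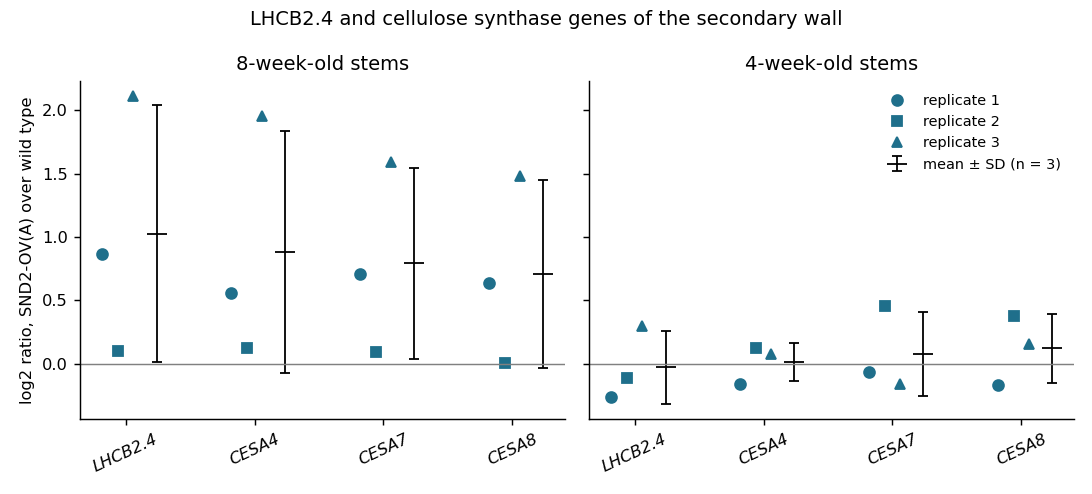
Log2 ratio of SND2-OV(A) over wild type (vertical axis) for LHCB2.4 and 3 cellulose synthase genes active in secondary walls, by biological replicate (symbols) with mean ± SD (bars). At 8 weeks replicate 3 is the highest and replicate 2 the lowest for each gene, and at 4 weeks every replicate of these genes lies between -0.26 and 0.45.

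LHCB4.1 did not differ from the wild type beyond its spread at either age. Its log2 ratios at 8 weeks were -0.00, -0.62 and 0.57, with a mean of -0.02 ± 0.59 (SD, n = 3). At 4 weeks they were -0.13, -0.19 and 0.48, with a mean of 0.06 ± 0.37. The sign of the 8-week mean changed to positive once arrays were centred (0.02).

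The ratio of LHCB4.1 went with the dye on all 8 arrays. With the line in Cy5 it was 0.21 and 0.57 at 8 weeks and 0.25 and 0.48 at 4 weeks. With the line in Cy3 it was -0.22 and -0.62 at 8 weeks and -0.52 and -0.19 at 4 weeks. The orientations did not overlap at either age, as for 55.1% of all probes at 8 weeks and 48.4% at 4 weeks. This pattern of signs on 8 arrays was shown by 1623 probes, or 4.31% of all, and its reverse by 1.96%. Of the 35 measured genes of all lists used here, PSBW (AT2G30570) and PSBY (AT1G67740), small subunits of photosystem II, shared the sign pattern of LHCB4.1, and the clock gene GI (AT1G22770) had the reverse. Disagreement between arrays was not limited to single genes. Over all probes, arrays of different replicates at the same age had Pearson correlations from -0.22 to 0.28. The dye-swapped arrays of replicate 1, which hold the same RNA, correlated at 0.09 at 8 weeks and 0.06 at 4 weeks. For LHCB4.1 they differed by 0.43 at 8 weeks and by 0.77 at 4 weeks. For LHCB2.4 these gaps were 0.03 and 0.02, although its dye orientations did not overlap at 8 weeks either. The named probes closest to LHCB4.1 belonged to AT1G43020, AT3G15290 and AT2G16900, with root mean square differences from 0.11 to 0.14.

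**Figure D3:**
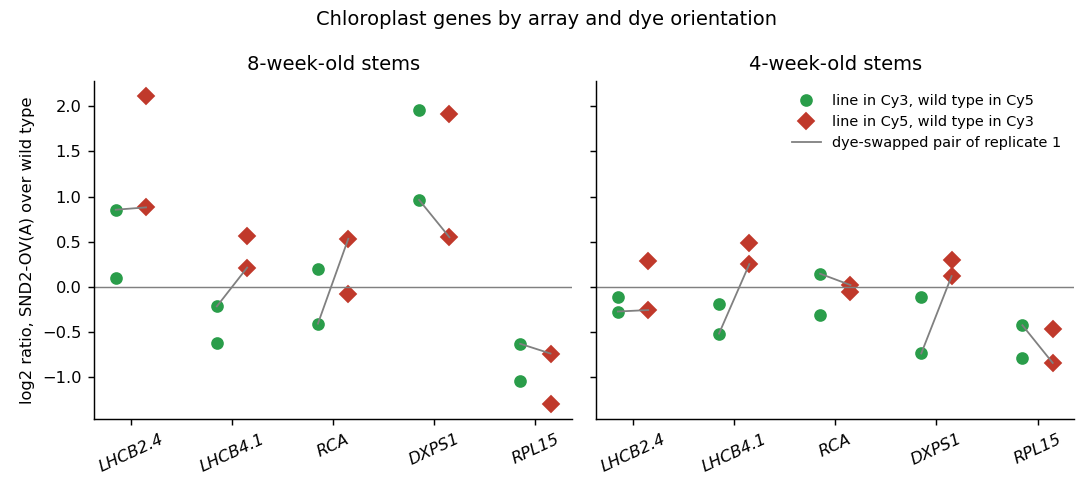
Log2 ratio of SND2-OV(A) over wild type (vertical axis) on each of the 4 arrays per age, by dye orientation, with a line between the dye-swapped arrays of replicate 1. LHCB4.1 is above 0 on the 4 arrays with the line in Cy5 and below 0 on the 4 with it in Cy3, and RPL15 is below 0 on all 8.

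Among the measured antenna genes of photosystem II, LHCB2.4 and LHCB4.3 had means far apart at 8 weeks. LHCB4.1 and LHCB4.2 did not differ beyond their spread, at -0.15 ± 0.25 (LHCB4.1 minus LHCB4.2, SD). The fixed list held 15 genes, of which 4 had a named probe, LHCB2.4, LHCB4.1, LHCB4.2 (AT3G08940) and LHCB4.3 (AT2G40100). LHCB4.2 had 0.17, -0.22 and 0.45 at 8 weeks, a mean of 0.13 ± 0.34 (SD, n = 3). LHCB4.3, a CP29 isoform, had -0.49, -0.54 and -1.19, a mean of -0.74 ± 0.39, and was lower on all 4 arrays, as were 8.6% of all probes. Replicate 3 was thus the highest for LHCB2.4, LHCB4.1 and LHCB4.2 and the lowest for LHCB4.3. LHCB4.3 also stands in the 8-week list of the study, so that its direction is not independent of that choice.

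Within each 8-week replicate LHCB2.4 had a higher log2 ratio than LHCB4.3, by 1.36, 0.63 and 3.30. It was also above LHCB4.1 in each, by 0.87, 0.71 and 1.54. These are gaps between ratios on the same arrays and give no order of transcript levels. LHCB2.4 and LHCB4.3 both stand in the 8-week list of the study, the former as higher and the latter as lower. A mean gap of this direction between them thus follows from that choice, which also favours the gap of LHCB2.4 over LHCB4.1. At 4 weeks the 4 antenna genes had means from -0.03 to 0.06, and LHCB2.4 and LHCB4.3 differed by -0.04 ± 0.26. Of the 4 genes, 0 passed in limma at either age, and 1 (LHCB4.3) had an unadjusted p under 0.05 at 8 weeks against 3.5% of all probes.

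**Figure D4:**
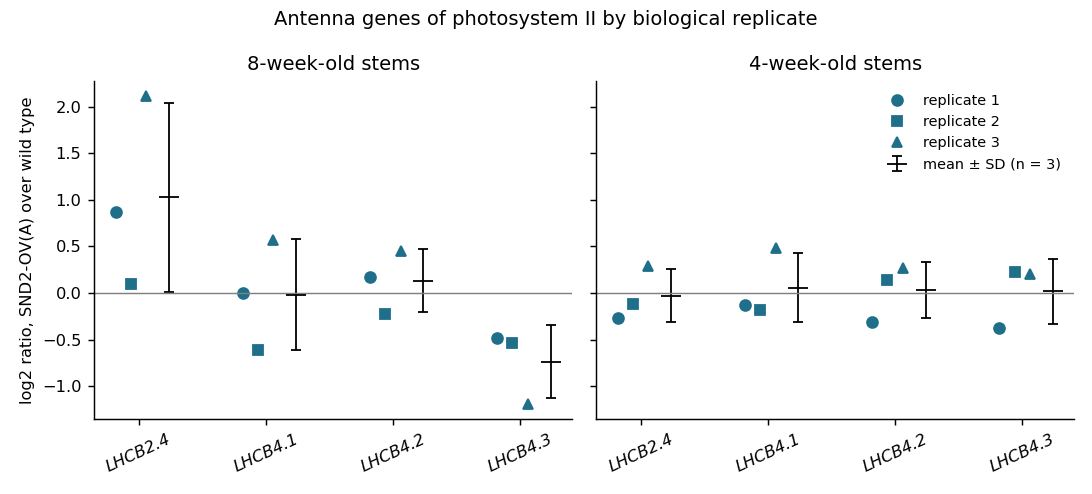
Log2 ratio of SND2-OV(A) over wild type (vertical axis) for the 4 measured antenna genes of photosystem II, by biological replicate (symbols) with mean ± SD (bars). At 8 weeks the means run from 1.02 for LHCB2.4 to -0.74 for LHCB4.3, and at 4 weeks they lie between -0.03 and 0.06. LHCB2.4 and LHCB4.3 stand in the 8-week list of the study, so that the wide span at 8 weeks follows from that choice.

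RCA lay close to the wild type. Its log2 ratios were 0.06, 0.19 and -0.08 at 8 weeks, with a mean of 0.06 ± 0.14 (SD, n = 3), and 0.08, -0.31 and -0.06 at 4 weeks, with a mean of -0.10 ± 0.20. Replicate 1 at 8 weeks concealed a disagreement between its arrays, which read -0.41 with the line in Cy3 and 0.53 with it in Cy5. This gap of 0.94 was the widest of the 5 genes at that age, so that the small SD of RCA rests on the averaging of that pair. The other measured genes of the Calvin cycle list were SBPASE (AT3G55800), sedoheptulose bisphosphatase, at -0.24 ± 0.62 and PRK (AT1G32060), phosphoribulokinase, at -0.03 ± 0.40 at 8 weeks. Both were lowest in replicate 3, at -0.96 and -0.49, the replicate in which LHCB2.4 and LHCB4.1 were highest. At 4 weeks they had -0.16 ± 0.21 and 0.07 ± 0.29. The list held 23 genes, the Rubisco small subunit genes among them, and the 3 measured had a median of -0.03 at 8 weeks and -0.10 at 4 weeks. AT4G25210, AT5G38850 and AT3G53140 were the named probes closest to RCA, with root mean square differences from 0.06 to 0.07.

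DXPS1, a gene of the deoxyxylulose phosphate synthase family that RefSeq also lists as DXS2 and DXL1, had the highest mean log2 ratio of the 5 genes at 8 weeks. Its log2 ratios at 8 weeks were 0.76, 1.96 and 1.92, with a mean of 1.55 ± 0.68 (SD, n = 3), or 2.92-fold. In replicates 1 and 3 the ratio of LHCB2.4 was above that of DXPS1, and DXPS1 exceeded it in replicate 2. DXPS1 was higher than the wild type on all 4 arrays, like 4.36% of all probes, and its probe ranked 4th from the highest of all 37685. Unlike LHCB2.4, it had its lowest value in replicate 1, with 0.96 and 0.55 on the dye-swapped arrays, and replicates 2 and 3 were nearly equal although they carried opposite dyes.

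At 4 weeks DXPS1 had log2 ratios of -0.31, -0.11 and 0.29, with a mean of -0.04 ± 0.31 (SD, n = 3) and an adjusted p of 1.0 in limma. These replicate ratios lay beside those of LHCB2.4 (-0.26, -0.11 and 0.29), although the arrays of replicate 1 disagreed for DXPS1 and not for LHCB2.4. The ratio of DXPS1 went with the dye at this age, at 0.12 and 0.29 with the line in Cy5 and -0.74 and -0.11 with it in Cy3, a pattern of signs shared by 18.6% of probes at this age. DXPS1 was the only one of the 5 genes whose 8-week ratios all lay above its 4-week ratios, as did those of 2.13% of all probes. The difference, 8 minus 4 weeks, was 1.59 ± 0.36 (SE), and it did not pass in limma. DXPS1 has its name only from the 8-week list of the study. Its high 8-week ratios, and with them this difference, thus follow in part from that choice. DXPS1 was the only gene with a named probe in a list of 12 for the MEP pathway, so that DXS1, DXR and the later enzymes were not analysed here. LTP5 (AT3G51600), a lipid transfer protein gene, UGT76B1 (AT3G11340), a glycosyltransferase gene, and TIM17-1 (AT1G20350), a gene of a mitochondrial import protein, were closest to DXPS1. They lay at root mean square differences from 0.47 to 0.52, farther than the closest genes of the other 4 members.

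RPL15 was the only one of the 5 genes that lay on one side of the wild type at both ages. At 8 weeks it had log2 ratios of -0.68, -1.04 and -1.29, with a mean of -1.005 ± 0.31 (SD, n = 3), or 2.01-fold lower. At 4 weeks it had -0.63, -0.78 and -0.47, with a mean of -0.63 ± 0.16, or 1.55-fold lower. All 8 arrays were below 0, from -1.29 to -0.42, and the dye orientations overlapped at both ages. Ratios below 0 on all 8 arrays were seen for 191 probes (0.507%), and below 0 in all 6 replicates for 699 (1.85%).

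The 4-week samples were other plants than those of the 8-week list. At 4 weeks RPL15 was among the 1.52% of probes more than 1.5-fold lower, and it did not pass in limma. RPL15 was, however, proposed for description with these values known, so that they are no independent check of the 8-week values. The 8-week ratios were lower than the 4-week ratios by 0.38 ± 0.20 (SE), and the ranges overlapped. Since its probe is named only through the 8-week list, part of this difference can follow from that choice. With 1 replicate left out this difference, 8 minus 4 weeks, ranged from -0.54 to -0.23, and it was -0.23 without replicate 3 at 8 weeks. Without any 1 replicate the mean stayed between -1.17 and -0.86 at 8 weeks and between -0.71 and -0.55 at 4 weeks.

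Other measured genes of the plastid ribosome lay nearer to the wild type than RPL15, whose probe has its name only from the 8-week list of the study. Of 40 listed genes, 26 of the large and 14 of the small subunit, 8 had a named probe. The other 7 had means from -0.12 to 0.04 at 8 weeks, with RPL3 (AT2G43030) at 0.04 ± 0.26 (SD, n = 3) and RPS6 (AT1G64510) at -0.12 ± 0.20. At 4 weeks they ranged from -0.13 for RPL29 (AT5G65220) to 0.11 for PSRP1 (AT5G24490). Their median was -0.07 at 8 weeks and -0.11 at 4 weeks, against -0.01 and 0.01 over the 7234 genes of the annotation. Of the 7, 0 were over 1.5-fold from the wild type at either age, where 0.456% of all probes were higher and 2.76% lower at 8 weeks and 1.05% and 1.52% at 4 weeks, so that this count does not set them apart from other probes.

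Cytosolic ribosomes contain another protein called L15. Its genes RPL15A (AT4G16720) and RPL15B (AT4G17390) had 0.10 ± 0.07 and 0.15 ± 0.27 at 8 weeks and -0.01 ± 0.31 and 0.02 ± 0.25 at 4 weeks (SD, n = 3). The named probes closest to RPL15 belonged to AT5G03090, AT2G14878 and AT3G24255, with root mean square differences from 0.31 to 0.33, and all 3 are named only through the gene lists of the study. Each of these was below 0 in all 6 replicates, as was RPL15. They were picked as closest over these same 6 ratios, so that the shared sign adds little.

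**Figure D5:**
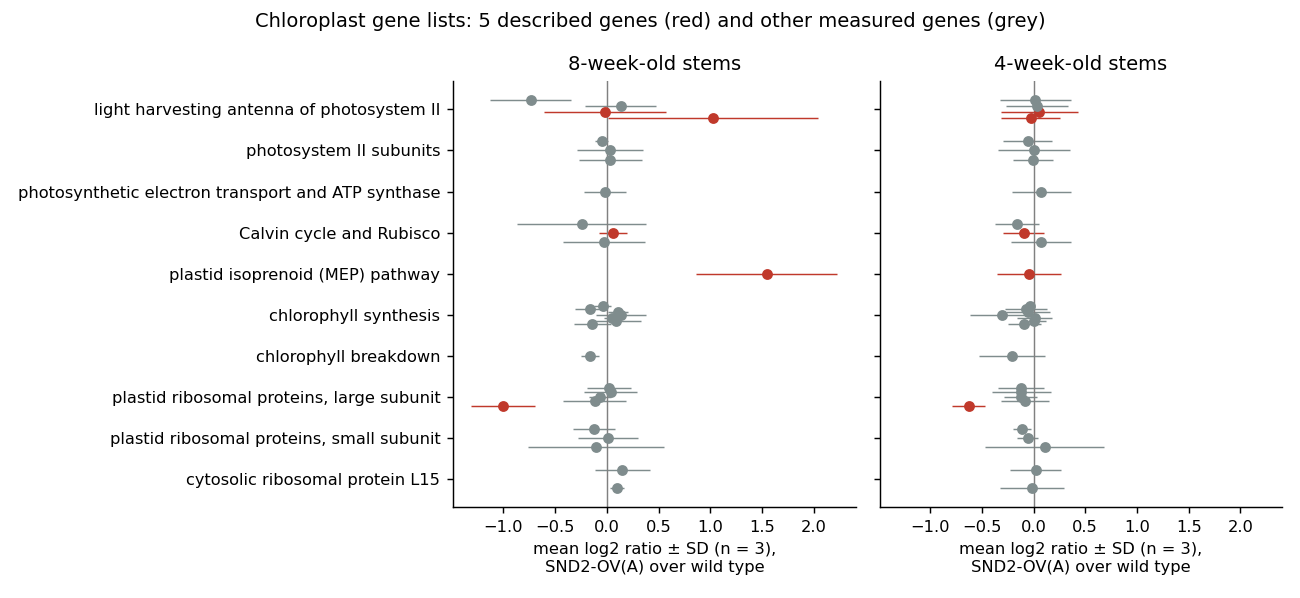
Mean log2 ratio of SND2-OV(A) over wild type (horizontal axis) ± SD over 3 replicates for each measured gene of 10 lists (vertical axis), with the 5 described genes in red and other measured genes in grey. At 8 weeks the means of LHCB2.4, DXPS1 and RPL15 lie apart from those of the grey genes other than LHCB4.3. These 3 probes are named only through the 8-week list of the study, so that this gap follows from their choice. The bar of LHCB2.4, at 1.02 ± 1.02, overlaps bars of grey genes. At 4 weeks RPL15, at -0.63, is the lowest and the next lowest is HEMA2 at -0.31.

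Over 6 lists of the antenna, the photosystems, electron transport and the Calvin cycle, 11 of 80 genes had a named probe. Their median log2 ratio was -0.02 at 8 weeks and 0.01 at 4 weeks. At 8 weeks 1 of the 11, LHCB2.4, was higher in all 3 replicates and 1, LHCB4.3, was lower, against 7.73% and 18.3% of all probes. At 4 weeks 0 were higher and 0 lower in all 3, against 8.91% and 7.98%. These counts are near the shares over all probes. By replicate, the median of the 11 was 0.05, -0.22 and 0.16 at 8 weeks and -0.22, 0.01 and 0.22 at 4 weeks, on both sides of the wild type at each age. The same genes were beyond 1.5-fold at 8 weeks, against 0.456% of all probes higher and 2.76% lower, but LHCB2.4 has its name from a list chosen for that fold change. Among the 10 genes that the annotation names, 0 were more than 1.5-fold higher and 1, LHCB4.3, was more than 1.5-fold lower. The photosystem II subunits PSBW, PSBY and PSB27 (AT1G03600) had means of 0.03, -0.05 and 0.03 at 8 weeks, and ATPC1 (AT4G04640), a subunit of the chloroplast ATP synthase, had -0.02. In limma 0 of the 11 passed at either age.

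Genes of chlorophyll metabolism lay near the wild type as well. Of 25 genes of chlorophyll synthesis 7 were measured, with a median of 0.05 at 8 weeks and -0.06 at 4 weeks. HEMA2 (AT1G09940), a glutamyl-tRNA reductase gene, was the highest at 8 weeks at 0.13 ± 0.24 (SD, n = 3) and the lowest at 4 weeks at -0.31 ± 0.31. HEME1 (AT3G14930) was the lowest at 8 weeks at -0.16 ± 0.14, and GSA1 (AT5G63570) the highest at 4 weeks at 0.01 ± 0.17. NOL (AT5G04900), a chlorophyll b reductase gene and the only measured one of 8 genes of chlorophyll breakdown, had -0.16 ± 0.09 at 8 weeks and -0.21 ± 0.32 at 4 weeks. GI was the only measured one of 11 clock genes and had -0.11 ± 0.28 and -0.05 ± 0.12. FAMA (AT3G24140), the only measured one of 4 guard cell markers, had 0.05 ± 0.29 and -0.14 ± 0.07. The antenna genes of photosystem I, the subunits of photosystem I, carotenoid synthesis, the light regulators such as GLK1 and HY5, and the markers of epidermis and phloem had no named probe and were not analysed here.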

How the data were processed

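RNA from stems of both genotypes was hybridized to 2-colour Agilent arrays. Per the methods, the authors used a GenePix scanner with its GenePix Pro software for feature extraction, and limma under R for import and normalization. The deposited values are log2 ratios for 37685 probes on 8 arrays, none missing. Their direction was checked against the gene lists that the study published for 8 and 4 weeks, where the replicate mean lay within 0.001 of the listed log2 value for 188 of 223 and 45 of 45 probes. The fold changes and p-values in those lists were put to no other use. Genes were named by an annotation table (7440 probes, all matched to RefSeq by gene ID) or by the gene column of these lists (188 probes more), and 30057 probes stayed unnamed. No coordinates are given, since no build is named. Array medians ranged from -0.112 to 0.063, and the SD over probes was widest, at 1.007, for replicate 1 at 8 weeks with Cy5 on the line. The number of arrays limits the precision.

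The arrays of replicate 1 were averaged. A limma model (3.58.1, R 4.3.3) with an intercept was fitted to 3 ratios per age, and 1 to all 6 ratios for the difference between ages, with Benjamini-Hochberg adjustment over all probes. Calls required an adjusted p under 0.05, and fold changes were counted beyond 1.5. No filter on low values was applied and all 5 genes were retained. The fits were also run on simulated ratios without a dye effect, so that this run does not bear on the dye patterns above. The members and the gene lists were chosen with earlier results of these data known. Named genes were the 5 members, all measured genes of the antenna, MEP pathway and cytosolic L15 lists, the highest and lowest gene of each other list, and the 3 named probes closest to each member. CESA7 and RPL29 were named after their values were seen. Alternatives covered the use of 1 array of replicate 1, a dye term, centring, scaling, a shared fit of both ages, averaging of probes per gene, a fold change over 2, a block for replicate number, and leaving out replicates in turn. Figures were drawn with matplotlib 3.10.9.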

Additional observations from a re-analysis of the deposited data

How the results depend on the processing

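The log2 ratios of DXPS1, LHCB2.4 and RPL15 at 8 weeks and of RPL15 at 4 weeks kept their sign under every alternative listed, and 0 of the 5 genes passed the adjusted threshold under any of them. LHCB4.1 at 8 weeks was 0.019 with arrays centred, 0.025 with them also scaled, and 0.055 when replicate 1 was represented by Cy5 on the line alone. RCA at 8 weeks was -0.10 with Cy3 and 0.21 with Cy5 alone, and its difference between ages -0.023 and 0.33. At 4 weeks LHCB4.1 was -0.073 with Cy3 alone and DXPS1 0.10 with Cy5 alone. With each replicate left out, LHCB4.1 ranged from -0.31 to 0.28 and RCA from -0.0095 to 0.13 at 8 weeks, and at 4 weeks LHCB2.4 from -0.19 to 0.089, LHCB4.1 from -0.16 to 0.18, RCA from -0.19 to 0.012 and DXPS1 from -0.21 to 0.091. The difference between ages of LHCB4.1 ranged from -0.36 to 0.23. The cause of these sign changes was not tested.

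Over all probes, a fold change over 2 left 33 higher and 461 lower at 8 weeks and 10 higher and 77 lower at 4 weeks, where 1.5-fold gave 172 and 1041, and 396 and 571. With each replicate left out, 179 to 475 were higher and 925 to 1597 lower at 8 weeks, and 64 to 1597 higher and 475 to 2150 lower at 4 weeks. At 4 weeks a dye term gave 112 higher and 1218 lower, Cy3 alone in replicate 1 gave 1753 lower, and Cy5 alone 685 higher. The adjusted threshold was passed by 2 probes at each age in a shared fit of both ages (MRD1 at both, SND2 at 8 weeks and AT3G50380 at 4 weeks), by 3 genes at 4 weeks with probes averaged per gene, SND2 among them, and by 0 to 3 probes at 8 weeks with a replicate left out. Without replicate 1 these were SND2, MRD1 and AT3G01345, and without replicate 2 SND2 alone.

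The samples of the ages share only replicate numbers. Deviations of same-numbered samples correlated at -0.02, 0.12 and 0.16 over probes for replicates 1, 2 and 3, and replicate 1 correlated best with another number. With a replicate block 0 probes passed for the difference between ages. The block is balanced over the ages, so that the differences themselves (1.59 for DXPS1 and -0.38 for RPL15) are the same by construction.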
